A study of Homo sapiens with 2 samples.

Results

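The genes of the matrix metalloproteinases (MMP), the ADAM and ADAMTS proteases and the tissue inhibitors of metalloproteinases (TIMP) were examined in HSC-3, an established line of human tongue squamous carcinoma. Members were chosen by gene symbol, and 69 of the 60616 genes in the tables matched. The list was taken up with earlier results of the same libraries known, and ADAM32 was selected on its place among the highest ratios, so the ratios below are descriptions. One group was cultured with the vehicle DMSO at 0.1%, the other with the ferroptosis inducer FIN56 at 1 µM for 48 h, a time that the labels state for FIN56 but not for DMSO. Both were grown in DMEM with 5% serum, and mRNA libraries were made with a strand-specific kit. There was 1 library per condition and no replicate, so each ratio compares 2 libraries and not the conditions. The expected counts had a total of 70184517 with DMSO and 73062209 with FIN56.

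MMPs are zinc-dependent endopeptidases that cleave collagens, proteoglycans and other matrix proteins, and most are made as inactive precursors. ADAMs are transmembrane proteins, of which those with a zinc-binding motif can release the outer part of other surface proteins, whereas ADAMTS proteases are secreted and act on matrix and plasma proteins. TIMPs bind the active site of these enzymes, and the balance of proteases and inhibitors has long been studied in the invasion of squamous carcinoma.

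By group, the 69 members were 16 secreted MMPs, 8 membrane MMPs (1 of them, MMP23A, a pseudogene), 12 ADAMs with the zinc-binding motif, 8 ADAMs without it, 2 ADAM pseudogenes, 19 ADAMTS genes and 4 TIMPs. The motif was found in the translated coding sequence of all 23 MMPs that have one, and in 12 of 20 ADAMs. The same letters were not found in ADAMTS1, ADAMTS4, ADAMTS8, ADAMTS9 and ADAMTS15. Unlike the ADAMs, ADAMTS genes were not grouped by the motif, and all were kept as secreted proteases. A cysteine switch, the stretch that keeps an MMP inactive, was found by its usual letters in 17 of the 23 MMPs. The label of the cells was checked against marker genes. All 8 squamous markers were expressed, with summed FPKM (fragments scaled by gene length and library size) of 5544 in DMSO and 5029.8 in FIN56, led by KRT5. The lower sum was mainly that of KRT5 and SFN, with FPKM ratios of 0.792 and 0.781, and KRT14 was at 0.959. The median log2 ratio of the 8 genes was 0.05, and EPCAM was at 1.44. Of the markers of other cells, 2 of 6 fibroblast, 3 of 5 leukocyte, 2 of 3 endothelial and 4 of 4 male germ cell genes had at most 3 counts in each library. PTPRC, CD3E and COL1A2 were at 0 in both. The summed FPKM of the fibroblast list was 5.10 and 2.92, led by COL1A1, that of the leukocyte list 57.8 and 25.1, led by CD68, and that of the endothelial list 0.08 in both libraries, led by VWF. The lower fibroblast and leukocyte sums were mainly those of COL1A1 (4.25 and 2.19) and CD68 (57.27 and 24.58). The count intervals of LUM and CSF1R, the other counted markers of these lists, included 1. PDGFRB had 34 and 15 counts, and DCN had 10 and 13. The part of the lower values in the member ratios was not tested.

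Of the 69 members, 21 had 0 expected counts in both libraries, which allows up to 3 counts, or 0.0427 in DMSO and 0.0411 in FIN56 per 1000000 counts. A further 16 had between 1 and 44.4 counts in both libraries together. The other 32 had 50 or more counts together and an FPKM above 0 in both, and only these enter the counts of members below. They were 12 secreted MMPs, 3 membrane MMPs, 7 ADAMs with and 2 without the zinc-binding motif, 5 ADAMTS genes and 3 TIMPs. Their levels spanned a wide range, with 9 at an FPKM of 10 or more in both libraries and 11 below 1 in both.

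**Figure D1:**
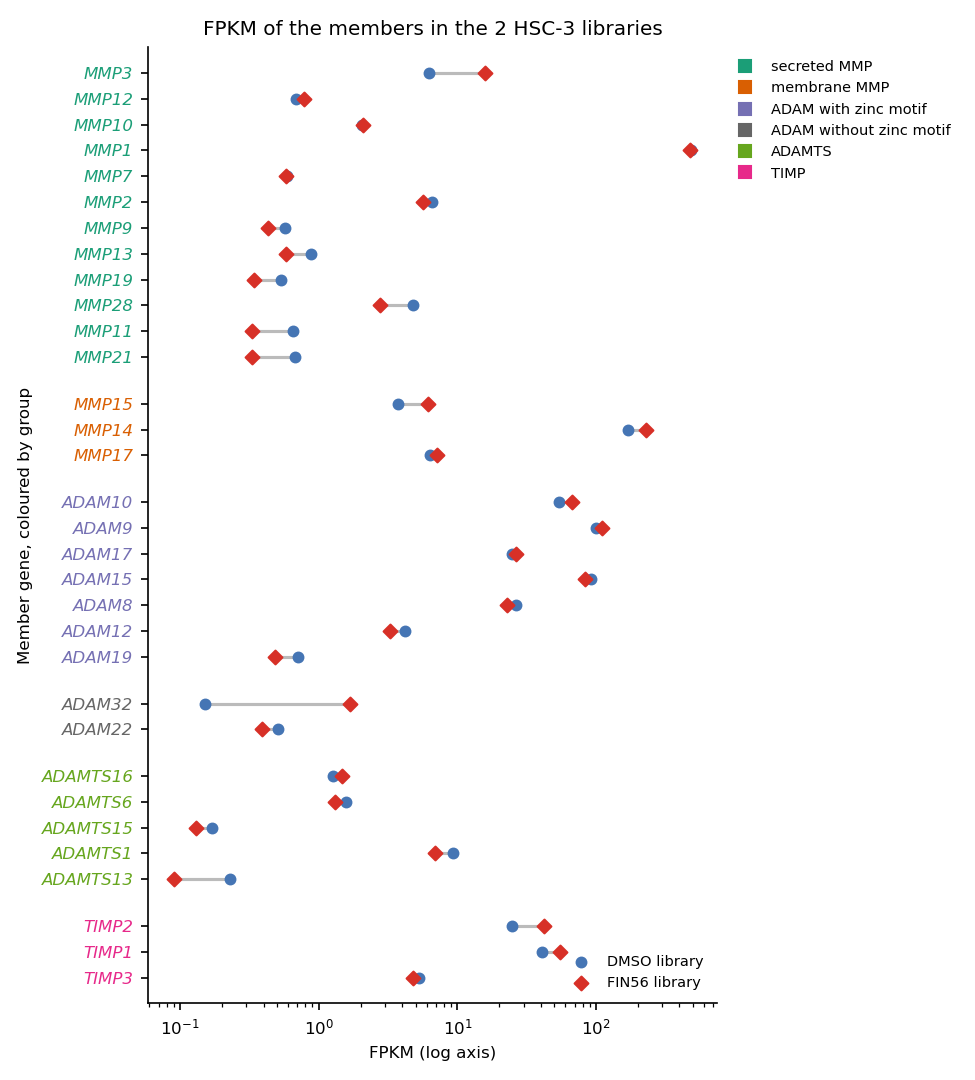
FPKM (log axis) of the 32 members with 50 or more expected counts over both libraries, by group. Circles mark the DMSO library and diamonds the FIN56 library. MMP1 had the highest level in both, and the widest gap between the libraries is that of ADAM32.

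An FPKM ratio, FIN56 over DMSO, of 1.5 or more was found for 4 of the 32 members (12.5%), against 6.84% of the 15770 genes counted in the same way. A ratio of 1/1.5 or less was found for 6 members (18.8%), against 10.1% of all these genes. The 4 higher members were ADAM32, MMP3, TIMP2 and MMP15, and the 6 lower ones were MMP13, MMP19, MMP28, MMP11, MMP21 and ADAMTS13. Nearest outside the thresholds lay MMP14 at 1.37 and ADAM19 at 0.676. ADAM32 was selected on its ratio, and without it 3 of 31 members (9.68%) were at 1.5 or above, against 6.83% of all genes. By counts scaled with library totals 4 members (12.5%) were at 1/1.5 or below, near the 10.1% of all genes, since MMP13 and ADAMTS13 no longer were. The median log2 FPKM ratio was -0.15 for the members and 0.02 for all genes. For each gene an exact Clopper-Pearson interval (95%) was put on the ratio of rounded expected counts, scaled by library totals, and it covers counting error only. The interval lay above 1 for 10 members, below 1 for 14 and on both sides of it for 8, whereas it lay above 1 for 34.2% and below 1 for 33.7% of all genes. Of the 7277 genes with a mean FPKM of 10 or more, 1276 had an interval that included 1, so at this depth an interval clear of 1 was common. In a culture measured in bulk, fewer cells of a type and less RNA per cell cannot be told apart.

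**Figure D2:**
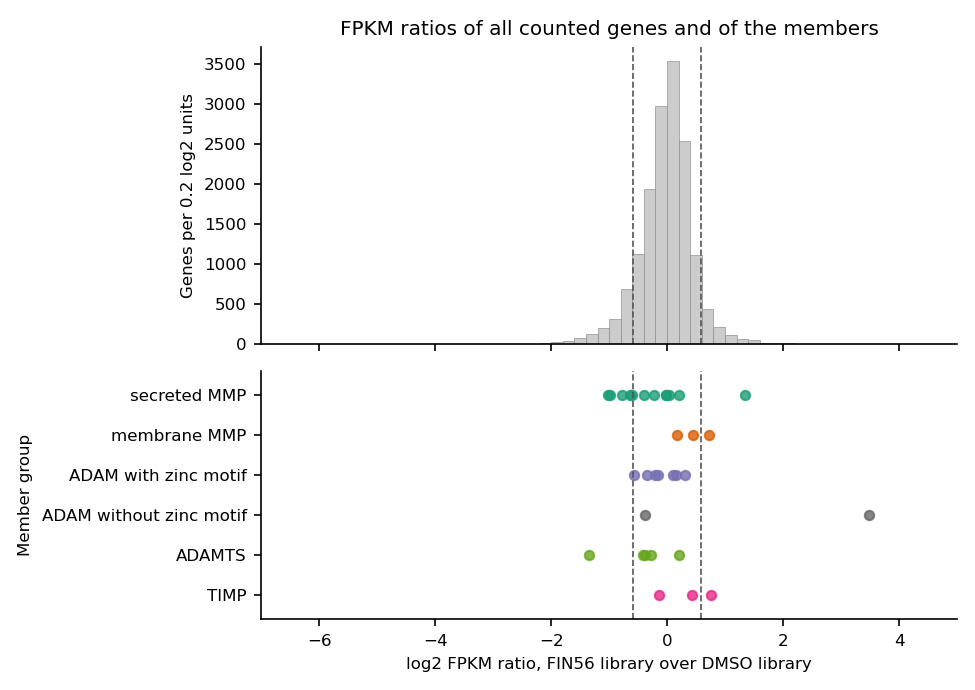
Upper panel, number of genes by log2 FPKM ratio (FIN56 over DMSO) for the 15770 genes with at least 50 counts together. Lower panel, the same ratio for each of the 32 members by group, with dashed lines at ratios of 1.5 and 1/1.5. The 3 membrane MMPs lie right of 0, and 9 of the 12 secreted MMPs lie left of it, MMP1 and MMP7 close to 0.

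The members past the thresholds differed in level. Among the 10 members with a mean FPKM of 10 or more, 2 were at 1.5 or above and 0 at 1/1.5 or below, while among the 22 below that level 2 were higher and 6 lower. MMP3 is 1 of the first 2 and reached a mean of 11.1 through the FIN56 library alone, and without it 1 of 9 was higher. Of all genes with a mean FPKM of 10 or more, 2.39% were higher and 4.59% lower, and of those under 10, 10.6% and 14.9%. The 6 lower members all had a mean FPKM under 10. The secreted proteases, that is secreted MMPs and ADAMTS genes, had a median log2 FPKM ratio of -0.39 over 17 genes, with 1 higher and 6 lower. The membrane proteases, that is membrane MMPs and ADAMs with the zinc-binding motif, had a median of 0.13 over 10 genes, with 1 higher and 0 lower. This median joins groups of opposite sign, with 0.45 over the 3 membrane MMPs and -0.15 over the 7 ADAMs. The summed FPKM of the secreted proteases hardly differed, at 522 in DMSO and 518 in FIN56, because MMP1 made up most of it. That of the membrane proteases was 482 and 559, of which MMP14 alone made up 169 and 231.

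Among the secreted MMPs, MMP1 (ENSG00000196611), the interstitial collagenase, was the most abundant member. Its FPKM was 485.6 in DMSO and 478.6 in FIN56, from 63820 and 65467 counts. It held 95.3% of the summed FPKM of the secreted MMPs in DMSO and 94.2% in FIN56. Members were compared over 6 scalings, namely FPKM, TPM, rlog and counts scaled by totals, by TMM or by median of ratios. They are not separate checks, since TPM is FPKM rescaled per library and the TMM sizes nearly equalled the totals. The ratio of MMP1 stayed between 0.985 and 1.01 over the 6 scalings, on both sides of 1, so no direction can be given. Without MMP1 the other secreted MMPs summed to an FPKM of 24.2 with DMSO and 29.7 with FIN56. Without MMP3 as well, the direction was the opposite, with sums of 17.9 and 13.8.

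MMP3 (ENSG00000149968), stromelysin-1, which degrades proteoglycans and can activate other MMPs, was the only secreted protease at 1.5 or above. Its FPKM was 6.27 in DMSO and 15.8 in FIN56, a ratio of 2.52. The counts were 758.8 and 1863, with a count ratio of 2.36 (95% interval 2.17 to 2.57). Reads shared with the closely related MMP10, stromelysin-2, make this value uncertain. The DMSO counts of MMP3 and MMP10 were not whole, whereas their sum was, at 999, against 2118 in FIN56. Taken as 1 unit the pair had a count ratio of 2.04 (1.89 to 2.20). MMP10 alone had an FPKM of 2.06 and 2.10, with an interval of 0.852 to 1.22 that included 1.

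The secreted MMPs at 1/1.5 or below were all of low level. MMP28, epilysin, a protease of keratinocytes, had the highest of them, its FPKM being 4.76 in DMSO and 2.76 in FIN56. Its counts of 308 and 192 gave a count ratio of 0.599 (0.497 to 0.719). MMP11, stromelysin-3, went from an FPKM of 0.65 to 0.33 on 88 and 48 counts (count ratio 0.524, 0.361 to 0.753). These 2 genes had whole counts, which gives no sign of reads shared with other genes. MMP21, known from left-right patterning, had an FPKM of 0.67 and 0.33 on 58.2 and 31.0 counts. MMP19 had an FPKM of 0.53 and 0.34 on 97.4 and 58.3 counts. The counts of both were not whole, and each lies across a gene on the opposite strand with more counts, EDRF1 with 2249.8 and 2730.8 for MMP21, and TMEM198B with 370.5 and 368.3 for MMP19. MMP13, collagenase-3, was nearest to the threshold, with an FPKM of 0.88 and 0.58 (ratio 0.659) and a count ratio of 0.689 (0.534 to 0.887). The gelatinases MMP2 and MMP9, which degrade basement membrane collagen, had an FPKM of 6.55 and 5.60, and of 0.57 and 0.43, and both count intervals included 1. So did those of MMP7, matrilysin, with 42 and 43 counts, and of MMP12, the macrophage elastase, with 82 and 98.

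**Figure D3:**
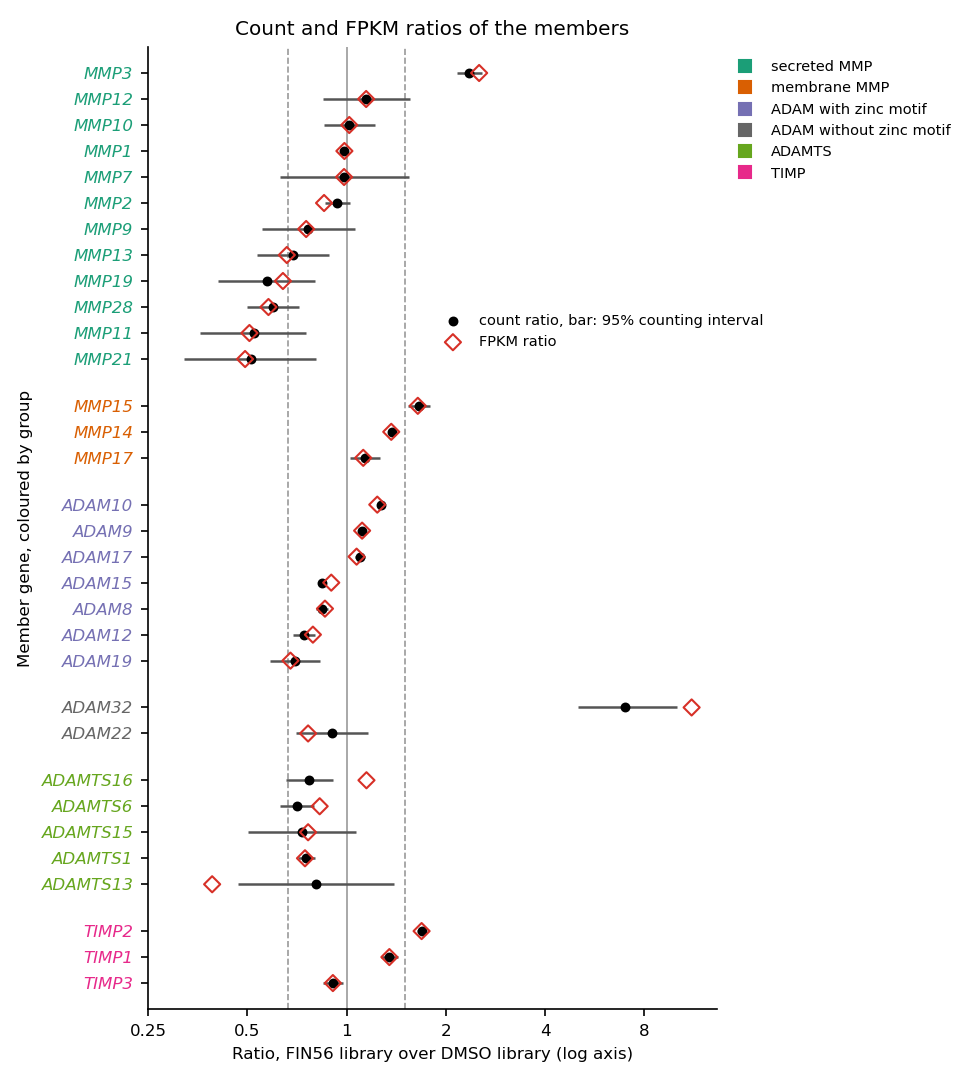
Ratios of FIN56 over DMSO on a log axis for the 32 members, by group. Black points are ratios of expected counts scaled by library totals with 95% Clopper-Pearson intervals, which cover counting error only, and open diamonds are FPKM ratios. Dashed lines mark 1.5 and 1/1.5. The diamond lies outside the interval for 6 members, among them ADAM32 (11.1 against 5.03 to 10.02), ADAMTS13 and ADAMTS16.

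A cluster of 9 MMP genes lies on chromosome 11, on the minus strand, from 102520508 to 102955732 (GRCh38, GENCODE release 44), a span of 435 kb. In order of position these are MMP7, MMP20, MMP27, MMP8, MMP10, MMP1, MMP3, MMP12 and MMP13. The cluster held the member with the highest level, MMP1, as well as 3 genes at 0 in both libraries, MMP20, MMP27 and MMP8. Its 6 expressed genes did not move together, with FPKM ratios of 2.52 for MMP3, 1.15 for MMP12, 1.02 for MMP10, 0.985 for MMP1, 0.983 for MMP7 and 0.659 for MMP13. The neighbours on both sides of MMP3, MMP1 and MMP12, thus had ratios of 0.985 and 1.15. WTAPP1, a transcribed pseudogene on the opposite strand across MMP10, MMP1 and MMP3, had 44.01 and 58.02 counts, and its FPKM was 1.05 and 1.04.

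AP-1, a dimer of FOS and JUN family proteins, is a known regulator of several of these genes, so the promoter windows of the cluster were searched for the letters TGANTCA, which read the same on both strands. RefSeq windows (GRCh38.p14), 300 bases each, from 250 before to 50 after the annotated start, were held for 5 of the 9 genes. MMP1, MMP3, MMP12 and MMP13 had no entry. The letters were found in 3 of the 5 windows and in 2707 of all 35116 windows (7.71%). Over all members with a window it was 4 of 39 (10.3%), near the share of all windows. Members were here counted by gene symbol and not by window, so the units of these shares differ. The stretches are shown because the genes share the letters but differ in level, with an FPKM of 0.59 and 0.58 for MMP7, 2.06 and 2.10 for MMP10, and 0 in both libraries for MMP20. They lie on the minus strand at chr11:102530778-102530844 for MMP7, chr11:102780659-102780725 for MMP10 and chr11:102625408-102625474 for MMP20. Capitals mark the match, which begins 67 bases before the start in MMP7 and MMP10 and 112 before it in MMP20.
MMP7: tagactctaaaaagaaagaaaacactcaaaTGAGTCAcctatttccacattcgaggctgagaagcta
MMP10: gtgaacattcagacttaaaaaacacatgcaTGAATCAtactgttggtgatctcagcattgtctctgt
MMP20: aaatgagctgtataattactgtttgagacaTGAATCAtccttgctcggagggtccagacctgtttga
A match of letters is a description and not a site of binding. MMP27 and MMP8, without the letters in their windows, were also at 0.

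The 3 membrane MMPs counted were all higher in the FIN56 library, under each of the 6 scalings. MMP14 (ENSG00000157227), the membrane collagenase that activates the MMP2 precursor, had an FPKM of 169 with DMSO and 231 with FIN56. Its count ratio was 1.37 (1.35 to 1.39), and among the members its mean FPKM was second to that of MMP1. MMP15 (ENSG00000102996), a related membrane protease, had an FPKM of 3.75 and 6.17 on 1024 and 1767 counts, with a count ratio of 1.66 (1.53 to 1.79). MMP17, which is held in the membrane by a lipid anchor, had an FPKM of 6.38 and 7.17 and a count ratio of 1.14, with the interval above 1. MMP14 alone made up 35.1% of the summed FPKM of the membrane proteases in DMSO and 41.3% in FIN56. The other 5 membrane MMPs, with the pseudogene MMP23A among them, were at 0 or below the minimum.

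The 7 counted ADAMs with the zinc-binding motif lay between the thresholds, and 5 of them were among the 10 members with the highest mean FPKM. ADAM10 and ADAM17 are the main sheddases of cell surface proteins, among them Notch, cadherins and ligands of the EGF receptor. ADAM10 had an FPKM of 54.3 with DMSO and 67.4 with FIN56, with a count ratio of 1.27 (1.235 to 1.304). ADAM17 had an FPKM of 24.8 and 26.6, with a count ratio of 1.10 (1.06 to 1.14). ADAM9, a widely expressed member that binds integrins, had an FPKM of 99.6 and 111 (1.11, 1.09 to 1.13). These 3 were higher in the FIN56 library under each of the 6 scalings, and the other 4 lower. ADAM15 had an FPKM of 92.6 and 83.2 (0.844, 0.824 to 0.864), and ADAM8 one of 26.6 and 22.9 (0.840, 0.806 to 0.876). ADAM12 and ADAM19, both of lower level, had FPKM ratios of 0.791 and 0.676. NIPAL4 lies across ADAM19 on the opposite strand with 603 and 841 counts, more than the 310 and 225 of ADAM19. On the opposite strand also lie IAH1 across ADAM17, with 3274.3 and 3037.1 counts, and TM2D2 across ADAM9, with 3207 and 3558. The counts of ADAM19, NIPAL4, ADAM9 and TM2D2 were whole, which gives no sign of shared reads, whereas those of ADAM17 and IAH1 were not.

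Of the 5 ADAMTS genes counted, ADAMTS1, which cleaves proteoglycans such as versican, was the most abundant. Its FPKM was 9.26 in DMSO and 6.93 in FIN56, with a count ratio of 0.755 (0.713 to 0.800). ADAMTS15 had an FPKM ratio of 0.765 on 68 and 52 counts, with a count interval of 0.502 to 1.07 that included 1. For the other 3 genes the FPKM ratio lay outside the count interval. ADAMTS6 had an FPKM ratio of 0.829 and a count ratio of 0.709 (0.628 to 0.800), both below 1. ADAMTS13, the protease of von Willebrand factor, had the lowest FPKM ratio of the members, 0.391, from FPKM of 0.23 and 0.09. The counts behind it were 32 and 27, a ratio of 0.811 with an interval of 0.467 to 1.40 that includes 1. Its low FPKM ratio thus rests on the effective length assigned in each library, which was 1982 bases in DMSO and 4106 in FIN56. REXO4 lies across it on the opposite strand with 4583 and 5224 counts, and the counts of both genes were whole, which gives no sign of shared reads. ADAMTS16 had an FPKM ratio of 1.15 but a count ratio of 0.770 (0.653 to 0.908) on 333 and 267 counts, so its direction depended on the measure.

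Among the inhibitors, TIMP2 (ENSG00000035862), which blocks MMPs and also forms the complex in which MMP14 activates the MMP2 precursor, was at 1.5 or above. Its FPKM was 24.8 in DMSO and 41.9 in FIN56, on 6138 and 10816 counts, with a count ratio of 1.69 (1.64 to 1.75). A non-coding gene across it on the opposite strand, AC022966.1, had 183 and 314.8 counts. Whether strand was used in counting is not given in the sources used here. The counts of TIMP2 and AC022966.1 were not whole, so reads of this pair cannot be told apart. TIMP1, the secreted inhibitor of most soluble MMPs, had an FPKM of 40.6 and 54.8, with a count ratio of 1.35 (1.27 to 1.43). TIMP3, which is bound to the matrix and also inhibits ADAM17, had an FPKM of 5.29 and 4.81 (0.909, 0.848 to 0.975). TIMP4 was at 0 in both libraries. The summed FPKM of the TIMPs was 70.7 in DMSO and 101.5 in FIN56. TIMP2 and MMP14 were both higher in the FIN56 library, and the FPKM of MMP14 was 6.81 times that of TIMP2 in DMSO and 5.51 times in FIN56.

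ADAM32 (ENSG00000197140) encodes an ADAM without the zinc-binding motif, in a family branch known mainly from the testis. Its FPKM was 0.15 in DMSO and 1.67 in FIN56, a ratio of 11.1 that ranked 9 among the 15770 genes. Since FPKM carries 2 decimals, rounding alone leaves this ratio between 10.7 and 11.6. The counts were 40 and 292, both whole, and their ratio of 7.01 (5.03 to 10.02) ranked 24. The measures thus differ in size but not in direction. They differ by the effective length, which was 3799.5 bases in DMSO and 2393 in FIN56. The annotation holds coding transcripts of up to 2524 bases and a retained intron transcript of 6871 bases, and the deposited gene values do not say which were present. The rlog values, which draw low counts towards each other, gave a ratio of 1.34.

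ADAM32 is found on chromosome 8, plus strand, between 39106990 and 39284917 in the same annotation, and ADAM9 ends 1544 bases before it on the same strand. The ratio of ADAM32 was not shared by the 3 neighbours with enough counts to tell. ADAM9 had a count ratio of 1.11, TM2D2 one of 1.07 (1.02 to 1.12) and PLEKHA2 one of 0.976 (0.942 to 1.01). HTRA4 had 1 and 2 counts, ADAM18 had 1 and 0, and the pseudogenes ADAM5 and ADAM3A had 0 in both libraries, too few to say whether they shared it. The 4 markers of male germ cells had at most 1 count in either library. ADAM22, the other ADAM without the motif that was counted and a receptor of the nervous system, had an FPKM of 0.51 and 0.39, and its count interval of 0.703 to 1.16 included 1.

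Genes that act with these proteases were read from 8 lists. Over the 64 partner genes reported with at least 50 counts together, 11 had an FPKM ratio of 1.5 or more (17.2%, against 6.84% of all genes) and 6 one of 1/1.5 or less (9.38%, near the 10.1% of all genes). The median log2 ratio was 0.09. The lists were chosen with earlier results known, and nothing is read from these shares. The plasminogen system activates several MMP precursors. PLAU, the urokinase and the most abundant gene of that list, had an FPKM of 633 with DMSO and 518 with FIN56. Its receptor PLAUR had an FPKM of 14.6 and 36.0 (ratio 2.47). SERPINB2, an inhibitor of urokinase, had an FPKM of 123 and 221 (ratio 1.80), and the ratio of SERPINE2, a related inhibitor, was 1.67. LRP1, the endocytic receptor that clears several proteases and their inhibitors, had an FPKM of 15.5 and 8.22 (ratio 0.531), while BSG, an inducer of MMPs, was at 314.8 and 410 (ratio 1.303).

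Of 17 shed surface proteins, the substrates of ADAM10, ADAM17 and related proteases, 3 were higher and 1 lower, with a median log2 ratio of 0.22. That is 17.6% and 5.88% of the list, against 6.84% and 10.1% of all genes, and nothing is read from these shares. The higher ones were EREG (1.64), AREG (1.63, FPKM 287 and 468) and TGFA (FPKM 42.6 and 63.9, just at the threshold, with a count ratio of 1.54). All 3 are ligands of the EGF receptor. HBEGF, a further ligand, had the same direction but stayed under the threshold, at 1.40. The ligands BTC, at 1.00 on 43 and 44 counts, and EPGN, the lower gene, did not share it. EPGN had a count ratio of 1.00 on 137 and 143 counts beside its FPKM ratio of 0.549. CD44 was the most abundant, with an FPKM of 718 and 878. Of the 9 cofactors of ADAM10 and ADAM17, none was higher, and TSPAN33 was at 0.542 on 32 and 20 counts with an interval that included 1. The most abundant, TSPAN14, had an FPKM of 55.8 and 56.9. Of the 5 proprotein convertases counted, PCSK5 was higher (1.64, on 70 and 119 counts), and PCSK7 was the most abundant, with an FPKM of 16.9 and 21.5.

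Among 15 transcription factors known as regulators of MMP genes, of the AP-1 and ETS families but for RUNX1 (1.40) and RUNX2 (0.973), 3 were higher and 1 lower. That is 20% and 6.67% of the list, against 6.84% and 10.1% of all genes, and nothing is read from these shares. FOSB was at 2.30 on 56 and 118 counts, ETV5 at 1.62 and JUND at 0.584. The count ratio of ETV5 was 1.95 (1.81 to 2.10), an interval that leaves out its FPKM ratio. ETV1 was at 1.55 by FPKM, but its count ratio was 1.27 (1.14 to 1.42) on 547 and 724 counts. FOSL1, the most abundant, had an FPKM of 257 and 320. Of the 5 ADAMTS-like genes counted, which have the ancillary parts of ADAMTS without the protease, THSD4 was the most abundant and was at 1.53, while PAPLN was at 0.357 and ADAMTSL1 at 0.545. Of the astacins and pappalysins 3 were counted, with none past the thresholds, and BMP1 was the most abundant, at an FPKM of 20.29 and 20.02.

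**Figure D4:**
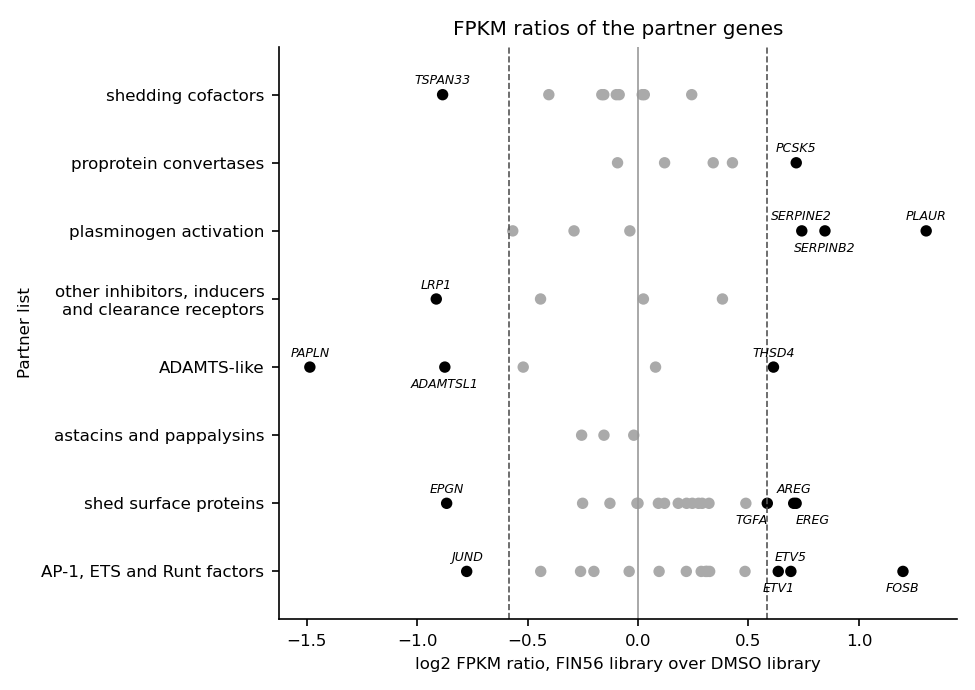
log2 FPKM ratios (FIN56 over DMSO) of the 64 partner genes reported with at least 50 counts together, 1 row per list. Black points with names are the 11 genes at 1.5 or above and the 6 at 1/1.5 or below, the thresholds drawn as dashed lines, and grey points lie between. PLAUR at 2.47 is farthest right and PAPLN at 0.357 farthest left.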

How the data were processed

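RNA-seq values of 2 HSC-3 libraries, 1 with DMSO and 1 with FIN56, were used as deposited. The submitters' notes name STAR 2.6.1a, RSEM 1.3.1 and DESeq2 1.26.0 on GRCh38. The authors deposited expected counts from RSEM, which are not normalized and split a read between the genes it matches. They also deposited FPKM, scaled by library size and effective length and given to 2 decimals. TPM was deposited too, with a sum near 1000000 for each library. A DESeq2 rlog table was deposited as well, with log2 values.

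The members and lists were chosen with earlier results of these data known. Every counted member could be named, in full those at 1.5 or above or 1/1.5 or below, the 10 with the highest mean FPKM, the TIMPs and ADAM32. Partner genes were named where past these thresholds or most abundant in their list, and genes next to ADAM32 and in the MMP cluster were named with their values. The values of 1 gene of the partner lists are not reported here, and it was left out of their counts, sums and medians. Overlapping genes, the split by mean FPKM, the pair of MMP3 and MMP10, the range left by rounding and the effective length were chosen after values were seen. The last was computed as count over FPKM and library total. Genes needed 50 or more expected counts over both libraries and an FPKM above 0 in both. Thresholds were applied in whole hundredths of FPKM. Counts were rounded for intervals, with a level of 95%, and called whole within 0.005. With 1 library per condition no test was made. Reads here carry no molecular identifier and are not independent molecules, so intervals and the 3-count limit at 0 cover counting error only.

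Protease motifs were searched in coding sequences of GENCODE 44 translated here, in place of RefSeq proteins, and positions came from the same release, which is later than the one the methods name. Alternatives were TPM, rlog, rounded counts scaled by totals, by edgeR 4.0.16 TMM or by DESeq2 1.42.0 median of ratios, no minimum, a minimum of 500, pseudocounts of 0.1 and 1 FPKM, and a threshold of 2. The interval step was tested on simulated data. Python 3.11.15, numpy 2.4.6, scipy 1.17.1, pandas 2.3.3, matplotlib 3.10.9 and R 4.3.3 were used.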

Additional observations from a re-analysis of the deposited data

How the results depend on the processing

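The 4 members at 1.5 or above and the 6 at 1/1.5 or below became 0 and 0 by rlog, 8 and 10 with no minimum, and 2 and 2 at a threshold of 2 and 1/2. With at least 500 counts 3 and 1 were left, and with a pseudocount of 1 FPKM 4 and 1. Over all genes, 1078 higher and 1596 lower became 7 and 16 by rlog, and 368 and 512 at a threshold of 2. With no minimum they were 3583 and 4240 of 24454 genes (14.7% and 17.3%), against 18.6% and 23.3% of 43 members. With at least 500 counts they were 388 and 725 of 11482 genes (3.38% and 6.31%), against 15% and 5% of 20 members. The pseudocount of 1 FPKM left 356 and 667 genes (2.26% and 4.23%), against 12.5% and 3.125% of members. In each of the last 2 settings the lower share is that of 1 member, MMP28, so no difference from all genes is read from it. By counts, whichever of the 3 scalings was used, 4 members were higher and 4 lower, without MMP13 and ADAMTS13. With library totals 5.95% of all genes were higher and 10.1% lower. By TPM 4 members were higher and 5 lower, without MMP13, against 7.67% and 9.25% of all genes. With a pseudocount of 0.1 FPKM 4 were higher and 4 lower, without MMP13 and MMP19, against 5.67% and 8.75% of all genes. Rounding of FPKM alone leaves the MMP13 ratio between 0.650 and 0.669, on both sides of 1/1.5.

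The median log2 ratio of the members, -0.15, changed sign to 0.040 with at least 500 counts, which leaves 20 members, and was -0.018 by rlog. The median of the membrane proteases, 0.13, was 0.18 by median of ratios and 0.073 by rlog. That of the secreted proteases, -0.39, stayed below 0 in every setting run but was nearer to it at -0.25 and -0.16 with pseudocounts of 0.1 and 1 FPKM, -0.23 with at least 500 counts and -0.037 by rlog. The ADAM32 ratio of 11.1 was 7.01 by counts with library totals or TMM, 7.19 with median of ratios, 7.08 and 2.32 with pseudocounts of 0.1 and 1 FPKM, and 1.34 by rlog. Pseudocounts and rlog draw low values together by construction. By rlog, ratios of members with many counts were also nearer to 1. That of MMP14, on 39125 and 55856 counts, went from 1.37 to 1.16, and that of MMP3 from 2.52 to 1.38. The cause of these and of the other shifts was not tested.

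Alternatives without ADAM32 or over genes with whole counts were chosen after seeing the data. Over whole counts the members numbered 22, with 2 higher, 4 lower and a median of -0.22, against 6.44% higher, 10.1% lower and a median of 0.026 over 8325 genes. Over the 6 scalings the direction of 3 of 32 members flipped, MMP1, MMP7 and ADAMTS16. Among single members, 0 of the values past the thresholds changed sign. No paired analysis was possible because there is a single pair of libraries and no test. Depth limits the members with few counts, such as ADAMTS13 with 32 and 27.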

Other observations

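Among the 16 members under the minimum of 50 counts, 3 had a counting interval that did not include 1, all of them above it. Of the 14650 genes with counts under the same minimum, 3.26% had an interval above 1 and 3.13% one below it, a share not matched on counts. ADAM28, a protease known from lymphocytes, had 8 counts in DMSO and 24 in FIN56 (count ratio 2.88, 1.25 to 7.42). ADAM21 had 6 and 16.5 (2.72, 1.02 to 8.43), and MMP24, a membrane MMP, had 14.6 and 29.8 (1.92, 1.002 to 3.84). MMP24OS, which lies across MMP24 on the opposite strand, was lower in the FIN56 library, with 1587 and 1003 counts. AL121753.2 and AL121753.1, also across MMP24 on the opposite strand, were higher, with 32.8 and 94.7 counts and with 2.82 and 9.32. Reads of MMP24 and these genes cannot be told apart. These genes were chosen after their values were seen, and with so few counts a few reads assigned elsewhere would change the ratios.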
